A study of Mus musculus with 16 samples.

Results

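The genes described here encode subunits of the NMDA and kainate classes of ionotropic glutamate receptor. They are 10 of the 17986 genes with a value in every library, chosen by symbol: the NMDA receptor genes Grin1, Grin2a, Grin2b, Grin2d and Grin3a and the kainate receptor genes Grik1, Grik2, Grik3, Grik4 and Grik5. RNA of CA1, a field of pyramidal neurons in the hippocampus, had been sequenced from male mice aged 3 to 6 months. Each animal was labelled either wild type (C57Bl6) or Neil3-/- on that background, Neil3 being a DNA glycosylase of base excision repair. CA1 was cut out by laser dissection from unperfused, frozen brain sectioned at 8 µm, so a library holds all cells of the dissected field. Each genotype was sampled in the home cage with no intervention (2 libraries per genotype) and under a source label of spatial exploration (3 libraries per genotype). The treatment protocol describes 1 week of open field training with cues, for 20 min per day, with the animals killed 20 min after the last session. It names that condition learning and does not say how spatial exploration differed from it. The 6 further samples whose source is the learning condition were not analysed here. How the Neil3 allele was made, and whether the animals were littermates, is not given in the sources used here.

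NMDA receptors are tetramers that need glutamate, a glycine-site co-agonist and depolarization to open. Grin1 encodes the obligatory GluN1 subunit, the Grin2 genes encode the glutamate-binding GluN2 subunits, and Grin3a encodes a glycine-binding subunit that lowers calcium permeability. NMDA receptors are the classical trigger of long-term potentiation at Schaffer collateral synapses onto CA1 neurons. Kainate receptors are tetramers too. Grik1, Grik2 and Grik3 (GluK1 to GluK3) form channels on their own, whereas Grik4 and Grik5 (GluK4 and GluK5) bind kainate with higher affinity and work only together with them.

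Upstream sequence was read for the subunit genes because several of them moved together. The RefSeq promoter table (GRCm38.p6) held 6 of the 10 genes, Grin1, Grin2d, Grik2, Grik3, Grik4 and Grik5. The 250 bases before the transcript start used in that table are printed for Grin2d, Grik2 and Grik4, which were lower after exploration in the KO-labelled animals, and for Grin1, which was not. They run 5′ to 3′ on the gene's strand, with CpG dinucleotides in capitals.
Grin1: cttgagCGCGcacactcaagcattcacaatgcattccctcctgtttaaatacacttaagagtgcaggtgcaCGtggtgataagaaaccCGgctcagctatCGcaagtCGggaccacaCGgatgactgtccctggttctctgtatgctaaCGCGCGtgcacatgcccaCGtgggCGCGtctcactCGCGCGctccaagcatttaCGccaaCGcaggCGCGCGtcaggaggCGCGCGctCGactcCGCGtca
Grin2d: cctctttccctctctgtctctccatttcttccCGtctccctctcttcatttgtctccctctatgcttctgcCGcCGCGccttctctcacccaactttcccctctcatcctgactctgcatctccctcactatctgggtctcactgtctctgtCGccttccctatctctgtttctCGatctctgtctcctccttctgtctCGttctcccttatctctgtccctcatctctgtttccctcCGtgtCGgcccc
Grik2: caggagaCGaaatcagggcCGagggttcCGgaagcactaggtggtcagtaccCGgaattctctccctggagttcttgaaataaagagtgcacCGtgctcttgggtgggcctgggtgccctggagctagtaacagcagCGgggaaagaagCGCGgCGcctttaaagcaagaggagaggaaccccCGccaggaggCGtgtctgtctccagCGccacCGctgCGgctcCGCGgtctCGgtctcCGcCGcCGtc
Grik4: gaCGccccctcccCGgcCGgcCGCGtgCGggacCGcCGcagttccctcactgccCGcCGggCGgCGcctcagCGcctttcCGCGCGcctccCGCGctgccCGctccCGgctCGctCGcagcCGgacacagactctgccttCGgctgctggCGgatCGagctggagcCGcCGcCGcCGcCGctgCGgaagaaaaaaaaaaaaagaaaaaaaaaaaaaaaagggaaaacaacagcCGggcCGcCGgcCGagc
The Grin1 stretch is chr2:25319188-25319437, that of Grin2d chr7:45866682-45866931, that of Grik2 chr10:49788755-49789004 and that of Grik4 chr9:42944372-42944621, all on the minus strand. The Grin1 window lies outside the span of the gene, whereas those of Grin2d, Grik2 and Grik4 lie 4.26, 1.16 and 0.38 kb inside theirs. Grin1 held 27 CpG dinucleotides, Grin2d 9, Grik2 20 and Grik4 36, against a median of 6 over 32851 promoters of the same length. GC content was 58.8% in Grin1, 54.4% in Grin2d, 62.8% in Grik2 and 69.6% in Grik4, against a median of 52.4%. Motifs of activity-regulated factors were searched on both strands in all 6 promoters. The letters were TGACGTCA (the cyclic AMP response element, in 1.55% of all promoters), TGAGTCA (AP-1, 4.46%), and GCGTGGGCG and GCGGGGGCG (EGR, 0.536% and 2.57%). None of these letters stood in any of the 6 windows. The GC box GGGCGG, found in 32.7% of promoters, occurred 1 time in Grik4, 2 times in Grik5 and 6 times in Grik3, and was not in the windows of Grin1, Grin2d and Grik2. No match overlapped one of another motif.

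The 10 libraries were alike in depth, estimated from the spacing of low values at 18600000 to 19900000 fragments. FPKM, the fragments of a gene scaled to its transcript length and to the depth of the library, summed to between 405718 and 466701 per library. Every exploration library (436171 or more) lay above every home cage library (431422 or less) in that sum. Neil3 FPKM was near 0 under the wild-type label and higher under the knockout label. Libraries labelled wild type had a listed value of 0 in both home cage animals and of 0, 0 and 0.05 FPKM after exploration. The libraries labelled Neil3-/- held 13.8 and 15.2 FPKM in the home cage and 15.1, 11.9 and 8.35 FPKM after exploration. The groups are therefore called WT-labelled and KO-labelled, and every direction between them rests on labels that the Neil3 values do not bear out. FPKM of a whole gene does not show whether its transcript is intact, and how the allele was made is not given. Whether the labels are exchanged was not tested. The home cage and exploration values stand in separate tables, and the ribosomal RNA gene Rn18s was at 1715 to 2398 FPKM in the first and at 5.69 to 10.6 FPKM in the second. Environment and table coincide, so what differs between environments and what differs between tables cannot be told apart. The CA1 pyramidal markers (Wfs1, Fibcd1, Mpped1, Pou3f1 and Spink8) summed to 694 to 908 FPKM and the dentate granule markers to 1.31 to 1.86 FPKM over 5 genes. Of these 5 Trpc6 had the highest mean, 0.823 FPKM, with a range of 0.51 to 1.17 FPKM.

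Levels of the subunits spanned a wide range, and FPKM is scaled per length, so they can roughly be set side by side. Changes with environment still moved with transcript length, as given below. Grin1 had a mean of 230.1 FPKM over the 10 libraries, above 98.2% of all genes. Grik5 followed at 65.2 FPKM, below Grin1 and above the other 8 genes in 10 of 10 libraries. Grin2b (8.15 FPKM), Grin2a (7.26 FPKM) and Grik2 (7.25 FPKM) came next. Their ranges overlapped, and Grin2b was above Grin2a in 6 of 10 libraries, so these neighbours have no fixed order. Grik4 averaged 3.93 FPKM, Grin3a 3.17 FPKM and Grin2d 1.78 FPKM, with overlapping ranges. Grik3 (0.52 FPKM) and Grik1 (0.442 FPKM) stayed under 1 FPKM in every library, at about 67 to 115 and 18 to 47 estimated fragments. These 2 genes did not pass the filter of at least 1 FPKM in at least 2 libraries, and 8 of the 10 genes were tested. Of the NMDA genes outside the set, Grin2c lay between 1.89 and 3.67 FPKM and Grin3b between 0.03 and 0.11 FPKM.

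**Figure D1:**
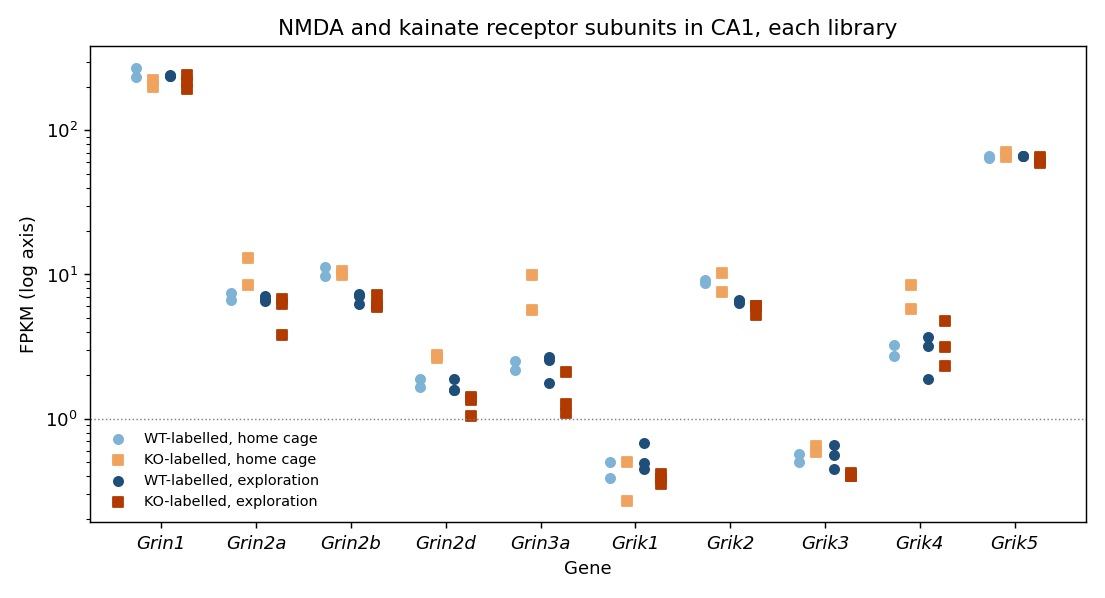
FPKM of each of the 10 subunit genes (log axis) in every library, by labelled group, with a dotted line at 1 FPKM. Grin1 and Grik5 stand above all other members in each of the 10 libraries, and Grik1 and Grik3 stay below the line.

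In the KO-labelled animals most of the tested subunits were lower after exploration than in the home cage. By limma on log2(FPKM + 1), with p-values adjusted over all 11892 tested genes and a call at an adjusted p under 0.05, 6 of 8 fell: Grin2a, Grin2b, Grin2d, Grin3a, Grik2 and Grik4. Across all genes 28.6% were called in this comparison, and 16.6% were called lower. As deposited 42% of those calls were higher, and after scaling by size factors 54.6% were, while the same 6 subunits fell. The median log2 change was -0.66 over the 8 subunits and -0.04 over all tested genes. In the WT-labelled animals 1 of 8 subunits changed, Grin2b, which fell, against 6.31% of all genes called. That all-gene count of 750 fell to 84 without WT-labelled home cage library 2 and to 241 without library 1. Averaged over the genotypes, 5 of 8 were lower after exploration (Grin2a, Grin2b, Grin2d, Grin3a and Grik2), where 31.9% of all genes were called and 19.2% were called lower (39.7% of calls higher as deposited, 51.9% with size factors).

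Between the genotypes, 1 of 8 subunits differed in the home cage. Grin3a was higher in the KO-labelled libraries, beside 3.57% of all genes called (425 genes, and 13 without KO-labelled library 2 or 15 without WT-labelled library 1). No subunit was called between the genotypes after exploration (0.597% of all genes called) or averaged over both environments (2.13%). In limma 2 and 3 of the 8 had an unadjusted p under 0.05 in those comparisons, beside 2046 and 2399 of all 11892 tested genes. The response to exploration itself differed between the genotypes for 1 subunit, again Grin3a, with 0.875% of all genes called.

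Grin3a (chr4:49661611-49846023, GRCm38.p6) varied most. It stood at 2.17 and 2.50 FPKM in the WT-labelled home cage libraries, at 5.67 and 9.85 FPKM in their KO-labelled counterparts, at 2.66, 2.57 and 1.78 FPKM in WT-labelled exploration and at 2.10, 1.27 and 1.09 FPKM in KO-labelled exploration. The 2 KO-labelled home cage libraries lay above all the others, which overlapped. Home cage means were 7.76 ± 2.96 FPKM (SD, n = 2) for the KO-labelled and 2.34 ± 0.23 FPKM (SD, n = 2) for the WT-labelled group. The log2 difference was 1.35 (SE 0.24, limma adjusted p = 0.0186). After exploration Grin3a fell by 1.80 on the log2 scale in KO-labelled animals (SE 0.22, limma adjusted p = 0.000951), to 0.288 of the home cage level on the FPKM + 1 scale. In WT-labelled animals the change was -0.01 (95% interval -0.48 to 0.46). The responses differed by -1.79 (SE 0.31, limma adjusted p = 0.0496). That last call sits at the threshold and was lost in 6 of 10 fits that each left out 1 library: home cage WT-labelled 1 or KO-labelled 2, or exploration WT-labelled 1 or 2 or KO-labelled 2 or 3. The home cage call was lost without WT-labelled library 1 (1.28, adjusted p = 0.156) or without KO-labelled library 2 (1.00, adjusted p = 0.123).

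Grin2d (chr7:45831883-45871194), a subunit with slow deactivation that in adult hippocampus is known mainly from interneurons, showed a smaller pattern of the same shape. It stood at 1.67 and 1.87 FPKM in WT-labelled home cage libraries and at 2.78 and 2.64 FPKM in KO-labelled ones. After exploration it was at 1.59, 1.58 and 1.88 FPKM in WT-labelled and at 1.41, 1.04 and 1.34 FPKM in KO-labelled libraries. The KO-labelled libraries were thus the highest in the home cage and the lowest after exploration, with no overlap with the WT-labelled ones in either. Within KO-labelled animals Grin2d fell by 0.72 (SE 0.12, limma adjusted p = 0.00239). The genotype difference was 0.42 in the home cage (adjusted p = 0.105) and -0.25 after exploration (adjusted p = 0.264), and the difference in response was -0.67 (adjusted p = 0.0761). None of these 3 passed. The summed interneuron markers were 215 to 249 FPKM in the home cage and 280 to 363 FPKM after exploration. Their part in the result was not tested.

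Grin2a (chr16:9567901-9996083) and Grin2b (chr6:135713221-136173615) encode the main GluN2 subunits of adult CA1. Grin2b stood at 11.2 and 9.83 FPKM in WT-labelled and at 9.86 and 10.6 FPKM in KO-labelled home cage libraries. It was at 6.26, 7.05 and 7.35 FPKM in WT-labelled and at 5.95, 7.20 and 6.11 FPKM in KO-labelled exploration libraries. Every exploration library lay below every home cage library, and the genotypes overlapped in both environments. Grin2b fell by 0.55 in WT-labelled (SE 0.11, limma adjusted p = 0.0141) and by 0.60 in KO-labelled animals (SE 0.11, adjusted p = 0.0032; without KO-labelled home cage library 2, -0.55 and 0.0502). The responses differed by -0.05 (95% interval -0.38 to 0.28). The WT-labelled call was lost without home cage library 1 (-0.46, adjusted p = 0.112) or 2 (-0.64, adjusted p = 0.069) or exploration library 1 (-0.49, adjusted p = 0.0654).

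Grin2a stood at 6.68 and 7.47 FPKM in WT-labelled and at 8.40 and 12.9 FPKM in KO-labelled home cage libraries. After exploration it was at 6.52, 7.14 and 6.71 FPKM in WT-labelled and at 3.81, 6.71 and 6.19 FPKM in KO-labelled libraries. KO-labelled home cage library 2 held the highest value and KO-labelled exploration library 1 the lowest, while the WT-labelled libraries of both environments overlapped. Grin2a fell by 0.83 in KO-labelled animals (SE 0.20, limma adjusted p = 0.0106) and changed by -0.05 in WT-labelled ones (95% interval -0.48 to 0.38). The difference in response, -0.78, did not pass (adjusted p = 0.183). Averaged over the genotypes the fall was 0.44 (adjusted p = 0.031), a call lost without home cage WT-labelled library 1 or 2 or KO-labelled library 2, or exploration WT-labelled library 1 or 3 (adjusted p from 0.055 to 0.16). Without KO-labelled home cage library 2 the fall in KO-labelled animals was 0.55 and lost its call (adjusted p = 0.165).

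Grin1, the subunit every NMDA receptor contains, was called in none of the 7 comparisons. It stood at 272 and 233 FPKM in WT-labelled and at 224 and 199 FPKM in KO-labelled home cage libraries. After exploration it was at 242, 240 and 239 FPKM in WT-labelled and at 193, 217 and 242 FPKM in KO-labelled libraries. The home cage groups did not overlap, and the exploration groups met at the top. The genotype difference averaged over both environments was -0.20 (95% interval -0.36 to -0.04, limma adjusted p = 0.147), and the change with exploration in KO-labelled animals was 0.03 (95% interval -0.19 to 0.26). The gene lies at chr2:25291177-25319187 (GRCm38.p6) and overlaps an antisense transcript, Grin1os. Whether counting used strand is not given in the sources used here, so reads of both may be mixed.

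Among the kainate subunits, Grik2 (chr10:49093680-49790161), the main channel-forming subunit in hippocampal pyramidal cells, was lower after exploration. It stood at 8.66 and 9.15 FPKM in WT-labelled and at 7.53 and 10.2 FPKM in KO-labelled home cage libraries. It was at 6.68, 6.57 and 6.31 FPKM in WT-labelled and at 6.09, 6.02 and 5.24 FPKM in KO-labelled exploration libraries. All exploration libraries lay below all home cage libraries. Grik2 fell by 0.53 in KO-labelled animals (SE 0.12, limma adjusted p = 0.00811), and by 0.33 with the call lost without KO-labelled home cage library 2 (adjusted p = 0.124). In WT-labelled animals the change was -0.40 (95% interval -0.65 to -0.14) and did not pass (adjusted p = 0.0681). The responses differed by -0.13 (95% interval -0.50 to 0.23).

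Grik4 (chr9:42518182-42945000), a high-affinity subunit known for strong expression in CA3, stood at 3.23 and 2.72 FPKM in WT-labelled and at 5.79 and 8.49 FPKM in KO-labelled home cage libraries. After exploration it was at 3.69, 3.19 and 1.89 FPKM in WT-labelled and at 4.79, 2.31 and 3.16 FPKM in KO-labelled libraries. As with Grin3a, the 2 KO-labelled home cage libraries were the highest of all 10. The fall in KO-labelled animals was 0.90 (SE 0.25, limma adjusted p = 0.0203). It was lost without KO-labelled home cage library 2 (-0.66, adjusted p = 0.222) or KO-labelled exploration library 2 (-0.71, adjusted p = 0.0597). The home cage genotype difference of 1.02 (SE 0.27) missed the threshold (adjusted p = 0.0633). The CA2 and CA3 markers Amigo2, Rgs14, Pcp4, Bok, Iyd and Nptx1 summed to 239 and 243 FPKM in the same 2 libraries, against 225 to 390 FPKM in the other 8. Within that list Pcp4 was lowest there (5.05 and 9.43 FPKM, against 10.7 to 113 FPKM elsewhere). So were Amigo2 (0.9 and 1.58 FPKM, against 1.78 to 16.9 FPKM) and Bok (4.53 and 4.99 FPKM, against 6.44 to 32.4 FPKM). Nptx1 was highest there (129 and 133 FPKM, against 101 to 120.2 FPKM). Between the genotypes in the home cage, 4 of the 5 tested markers were lower in KO-labelled animals and 1 was higher, with 0 called. With exploration 3 of the 5 were called higher in KO-labelled animals (28.6% of all genes called). Their part in the result was not tested.

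Grik5 (chr7:25009849-25075694), the other high-affinity subunit, was called in none of the 7 comparisons. It ranged from 64.0 to 71.3 FPKM in the home cage and from 59.2 to 66.8 FPKM after exploration, and its log2 change in KO-labelled animals was -0.14 (95% interval -0.30 to 0.01). Grik3 was at 0.50 and 0.57 FPKM in WT-labelled and at 0.59 and 0.65 FPKM in KO-labelled home cage libraries. After exploration Grik3 was at 0.66, 0.56 and 0.45 FPKM in WT-labelled and at 0.40, 0.42 and 0.40 FPKM in KO-labelled libraries. The low-affinity subunit Grik1 was at 0.50 and 0.39 FPKM in WT-labelled and at 0.27 and 0.50 FPKM in KO-labelled home cage libraries. After exploration it was at 0.68, 0.45 and 0.49 FPKM and at 0.35, 0.41 and 0.38 FPKM in the same order. In the fit with no filter the genotype differences after exploration of Grik1 (-0.16, limma adjusted p = 0.424) and Grik3 (-0.14, adjusted p = 0.287) did not pass.

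**Figure D2:**
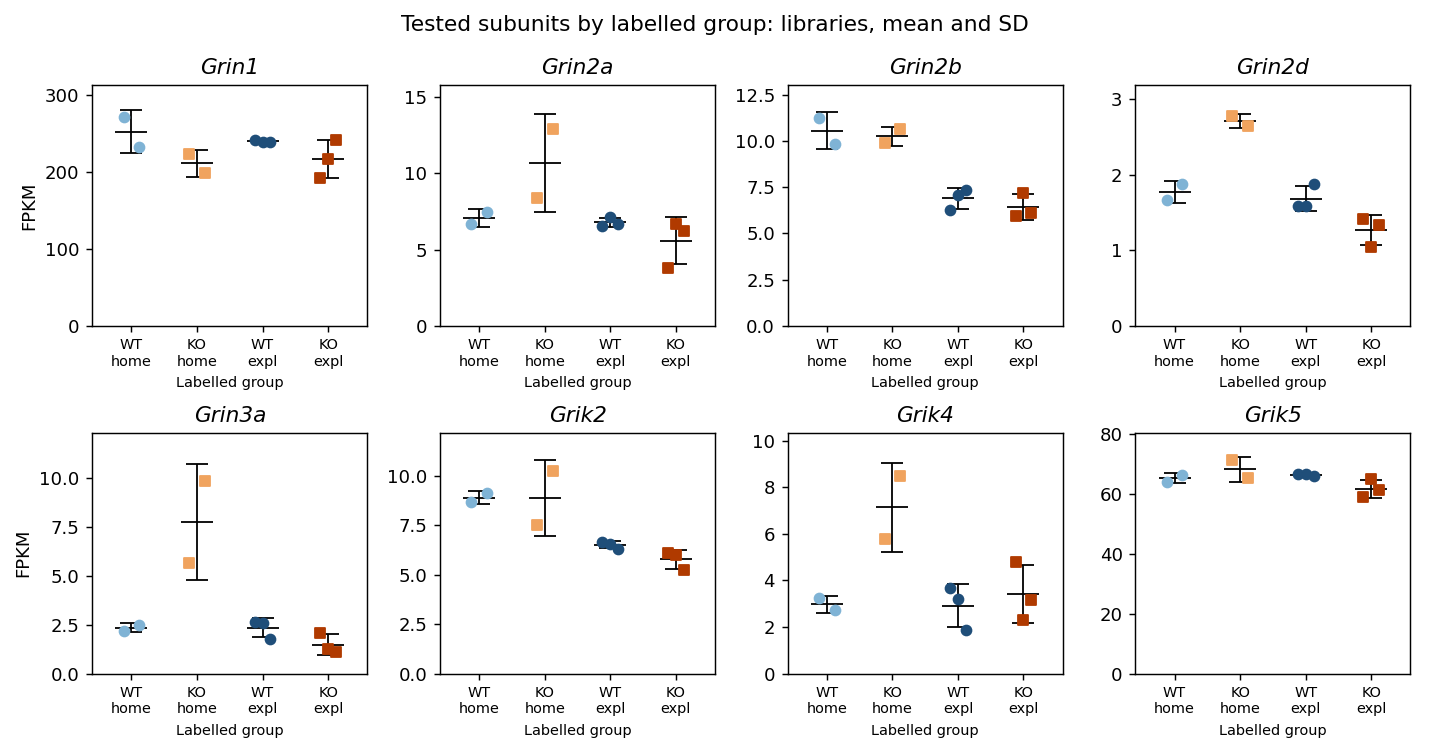
FPKM of the 8 tested subunits (linear axes from 0) in each library, with bars for the mean and SD of each labelled group. Grin3a and Grik4 are highest in the 2 KO-labelled home cage libraries (5.67 and 9.85, and 5.79 and 8.49 FPKM), and Grin2b is lower in every exploration library than in every home cage library.

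Several measures moved with these results. KO-labelled home cage library 2, which held the highest Grin2a, Grin3a, Grik2 and Grik4, decided many of the calls: without it 2 of 8 subunits, Grin2d and Grin3a, were called lower after exploration in KO-labelled animals, and 505 genes in all instead of 3400. The CA1 markers moved both ways in the KO-labelled home cage libraries. Wfs1 was at 127 and 64.9 FPKM there against 153 to 239 FPKM in the other 8 (home cage genotype difference -1.17, limma adjusted p = 0.0358). Mpped1 was at 219 and 234 FPKM against 157 to 184 FPKM (0.42, adjusted p = 0.0387), Fibcd1 was also highest there, and Fibcd1, Pou3f1 and Spink8 did not pass. The summed astrocyte markers were 58.0 and 64.0 FPKM in WT-labelled and 90.4 and 116 FPKM in KO-labelled home cage libraries, and the oligodendrocyte markers 129 and 154 FPKM and 177 and 213 FPKM. Microglial markers summed to 11.3 and 12.2 FPKM and to 16.9 and 18.1 FPKM in the same groups. Blood markers summed to 69.1 to 109 FPKM in the home cage and 115 to 218 FPKM after exploration. Choroid plexus markers summed to 234 FPKM in WT-labelled home cage library 1 and to 131 and 107 FPKM in WT-labelled exploration libraries 1 and 2, against 9.34 to 17.6 FPKM elsewhere. Their part in the results was not tested, and in dissected tissue fewer cells of a type and less RNA per cell cannot be told apart.

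Transcript length moved with environment as well. Each of the 10 subunit transcripts is at least 3604 nt long, and the 4220 tested genes of that length or longer had a median log2 change of -0.16 in KO-labelled animals, against 0.03 in shorter genes. Of those long genes, 27.1% were called lower in that comparison. With trends on length and GC content removed, an alternative chosen after seeing the data, 5 of 8 subunits still fell in KO-labelled animals. The changes were -0.70 for Grin2a, -0.33 for Grin2b, -0.42 for Grin2d, -1.55 for Grin3a and -0.47 for Grik2. Grik4 (-0.68, limma adjusted p = 0.0608) and, in WT-labelled animals, Grin2b (-0.35, adjusted p = 0.0769) no longer passed. The share of all genes called with the trends removed is not given here. Over the 6 alternative settings, this one included, 1705 to 3503 genes were called in KO-labelled animals.

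**Figure D3:**
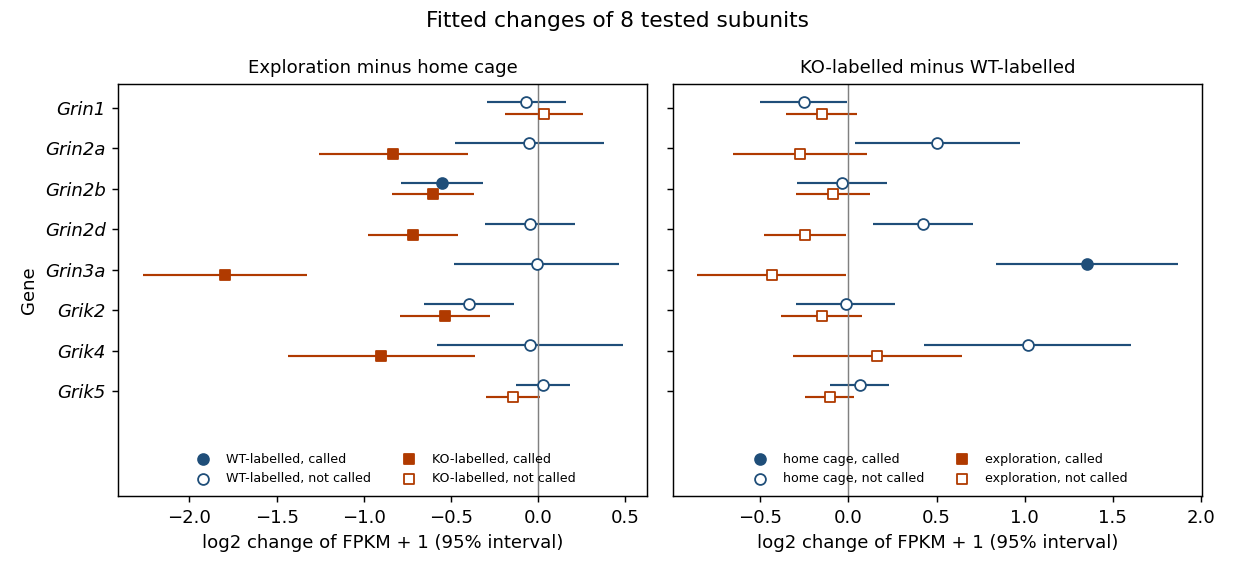
Log2 change of FPKM + 1 with its 95% interval for the 8 tested subunits, exploration minus home cage within each labelled genotype (left) and KO-labelled minus WT-labelled within each environment (right). Filled symbols passed an adjusted p of 0.05: 6 in KO-labelled and 1 in WT-labelled animals on the left, and Grin3a in the home cage on the right.

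Ratios between subunits within a library do not depend on its scaling. The ratio of Grin2a to Grin2b, a measure of subunit balance, was 0.677 ± 0.117 (SD, n = 2) in WT-labelled and 1.03 ± 0.259 (SD, n = 2) in KO-labelled home cage libraries. After exploration it was 0.989 ± 0.067 (SD, n = 3) and 0.862 ± 0.196 (SD, n = 3). Neither the genotype nor the environment difference passed in two-sided exact permutation tests stratified by the other factor (p = 0.52 for both, adjusted over 6 ratio tests). The log2 genotype difference had opposite signs, 0.60 in the home cage and -0.22 after exploration.

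The ratio of Grin1 to the summed Grin2a, Grin2b and Grin2d was higher after exploration. It was 13.9 and 12.1 in WT-labelled and 10.6 and 7.61 in KO-labelled home cage libraries. After exploration it ranged from 15.02 to 16.9 in WT-labelled and from 14.5 to 17.8 in KO-labelled libraries. All 6 exploration libraries lay above all 4 home cage libraries, with a mean log2 difference of 0.57 (exact permutation p = 0.01, the smallest this design allows, adjusted p = 0.03). Within the genotypes it was 0.27 in WT-labelled and 0.87 in KO-labelled animals. The kainate ratio, Grik4 and Grik5 over Grik1, Grik2 and Grik3, was 6.90 ± 0.083 (SD, n = 2) and 7.83 ± 1.91 (SD, n = 2) in the home cage and 9.13 ± 0.30 (SD, n = 3) and 9.95 ± 0.684 (SD, n = 3) after exploration. Its log2 difference was 0.38 (exact permutation p = 0.01, adjusted p = 0.03). KO-labelled home cage library 1, at 9.18, lay within the exploration range. Neither ratio passed by genotype (adjusted exact permutation p = 0.4 for each). Both environment results reached an adjusted exact permutation p of 0.06 when 1 FPKM was added to each gene. Leaving out each of the 10 libraries in turn leaves so few permutations that even the most extreme arrangement did not pass. Whether the results rest on 1 library therefore cannot be read from p in those runs.

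**Figure D4:**
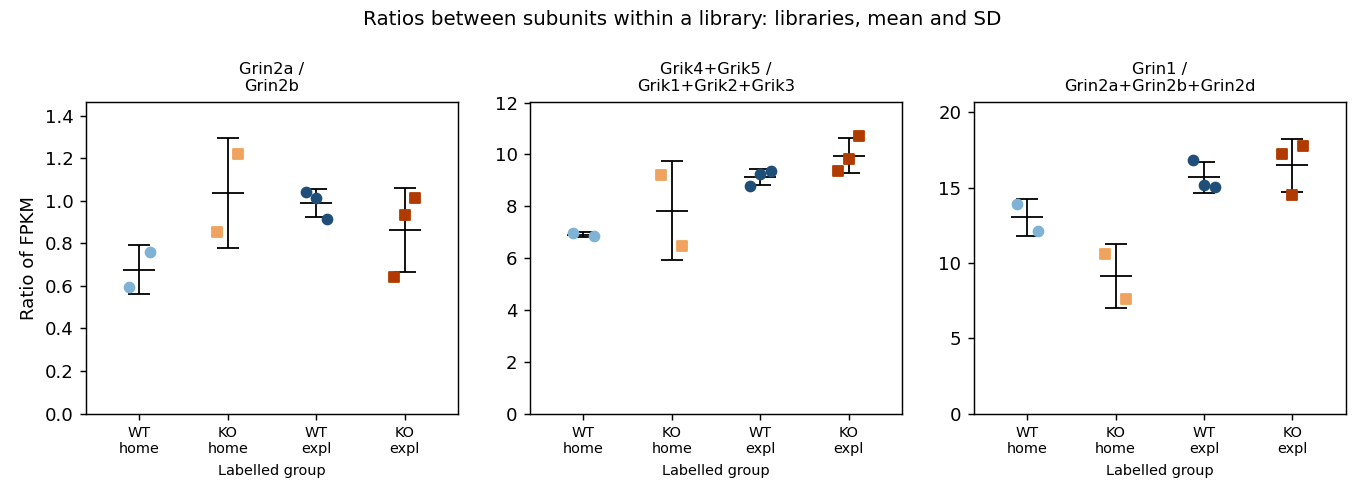
FPKM ratios between subunits in each library (linear axes from 0), with bars for the mean and SD of each labelled group. The Grin1 ratio (right) is 14.5 or more in all 6 exploration libraries and 13.9 or less in all 4 home cage libraries.

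Genes that assemble, anchor or signal from these receptors were read from 37 listed names, of which 34 were tested. In KO-labelled animals 16 of the 34 changed with exploration, 6 higher and 10 lower, where 28.6% of all genes were called. Without KO-labelled home cage library 2, which lowered the all-gene count as well, 2 of the 16 kept their call, Neto1 and Nos1. In WT-labelled animals none of the 34 was called by limma (3 at an unadjusted p under 0.05, beside 2702 of all 11892 tested genes). The median log2 change of the 34 in KO-labelled animals was -0.10, beside -0.04 over all genes.

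All 3 tested kainate auxiliary and organiser genes changed with exploration in KO-labelled animals, where 28.6% of all genes were called. Neto1, an auxiliary subunit of kainate receptors that also binds NMDA receptors, stood at 4.21 and 5.25 FPKM in WT-labelled and at 8.79 and 13.8 FPKM in KO-labelled home cage libraries. It was at 6.22, 5.20 and 4.57 FPKM in WT-labelled and at 5.02, 4.16 and 4.04 FPKM in KO-labelled exploration libraries. The 2 KO-labelled home cage libraries were the highest, as for Grin3a and Grik4. Neto1 was higher by 1.08 in KO-labelled home cage animals (SE 0.19, limma adjusted p = 0.0186), fell by 1.16 with exploration in them (SE 0.17, adjusted p = 0.00186), and its response differed between the genotypes by -1.30 (SE 0.24, adjusted p = 0.0496). The home cage call was lost without WT-labelled library 1 (adjusted p = 0.167) or KO-labelled library 2 (adjusted p = 0.122). The difference in response was lost without the same 6 libraries as for Grin3a (adjusted p from 0.0687 to 0.223), with a pseudocount of 0.1 and with no filter. Neto2, the related auxiliary subunit, rose by 0.47 (adjusted p = 0.0219), and C1ql3, a secreted synaptic organiser, fell by 0.55 (adjusted p = 0.0239). Both calls were lost with no filter (limma adjusted p = 0.0592 and 0.0744) and without KO-labelled home cage library 2 (0.43 and -0.50). That of Neto2 was also lost with length and GC trends removed (adjusted p = 0.0686). C1ql3 lost its call without KO-labelled home cage library 1 (-0.59) or KO-labelled exploration library 3 (-0.39, adjusted p = 0.0519).

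Among 11 scaffold and transport genes 7 changed with exploration in KO-labelled animals, 2 higher and 5 lower (28.6% of all genes called). The adaptor gene Lin7a fell by 0.64 and its paralogue Lin7b rose by 0.75, while Cask fell by 0.35 and Apba1 by 0.46, these being partners in a complex that carries NMDA receptors. With length and GC trends removed Lin7a and Lin7b kept these calls. Cask (-0.12, limma adjusted p = 0.314) and Apba1 (-0.20, adjusted p = 0.105) lost theirs. Lin7a was also higher in KO-labelled home cage animals by 0.58 (limma adjusted p = 0.0412). That home cage call was lost in 7 of 10 fits that each left out 1 library. Of 10 kinases and phosphatases 3 rose and 1 fell, where 28.6% of all genes were called. Camk2b, a CaMKII subunit, rose by 0.57, the calcineurin genes Ppp3ca by 0.33 and Ppp3cb by 0.25, and the Src-family kinase gene Fyn fell by 0.25. The Ppp3ca call was lost with no filter (limma adjusted p = 0.109) and with only the groups compared (0.161). It was also lost without any 1 exploration library (0.0552 to 0.0882). That of Ppp3cb was lost with only the groups compared (0.137) and with length and GC trends removed (0.127). Camk2b was lower by 0.58 in KO-labelled than in WT-labelled home cage animals (limma adjusted p = 0.0298), a call lost without either WT-labelled or without KO-labelled library 2 of the home cage, or exploration WT-labelled library 1.

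Downstream, 1 of 4 genes fell with exploration in KO-labelled animals, near the 28.6% called among all genes. Nos1, the neuronal nitric oxide synthase tethered to NMDA receptors, fell by 1.30 (limma adjusted p = 0.00185). It stood at 8.73 and 16.4 FPKM in the KO-labelled home cage libraries and at 4.09, 4.39 and 4.38 FPKM after exploration, while WT-labelled libraries lay between 5.98 and 8.35 FPKM. The delta receptor gene Grid1 fell by 0.49 (adjusted p = 0.00396). None of the 4 genes of co-agonist supply and uptake was called in that comparison by limma. At an unadjusted p under 0.05 there was 1, beside 4945 of all 11892 tested genes.

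The genes most like the 3 most variable subunits across the 10 libraries were found by Pearson r on log2(FPKM + 1), as a description over libraries that share their tables and groups. For Grin3a they were Crtac1 (r = 0.992), D430041D05Rik (r = 0.991) and Syt17 (r = 0.988). Those most like Grik4 were Flrt3 (r = 0.971), Kcng2 (r = 0.959) and Islr2 (r = 0.953). For Grin2a they were Gatad2b (r = 0.974), Ksr2 (r = 0.971) and Lmbrd2 (r = 0.967).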

How the data were processed

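Per the labels' protocols, read pairs of 100 bp came from BGISEQ-500 sequencing. The authors deposited FPKM per gene for 10 libraries, in separate tables for the home cage and exploration. The submitters' processing notes name HISAT, Bowtie2, RSEM, StringTie and GATK and the builds GRCm38 and mm10, with no versions or roles. A joint normalization of both tables is not given in the sources used here. They were joined on gene ID (17986 genes).

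Each gene was tested with limma 3.58.1 (R 4.3.3) on log2(FPKM + 1) with a variance trend, 1 mean per group and all 10 libraries in 1 fit. The 11892 genes that reached 1 FPKM in 2 or more libraries were tested, and p-values were Benjamini-Hochberg adjusted over them. The pseudocount of 1 understates changes of low genes. Groups hold 2 or 3 animals each. A limma p-value sets a difference against the spread between libraries within groups, pooled over all groups and moderated across genes. Ratios used exact permutation tests (100 or 120 arrangements). Steps between low values gave the depth, and for a transcript of 1 kb each fragment adds about 0.058 FPKM.

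The subunits and gene lists were chosen with earlier results of these data known. All 10 subunits are named. From each list up to 4 called genes with the smallest p are named, and for likeness the 3 genes closest to each of the 3 most variable subunits. Other genes are named as markers or checks. The statistics were tested on simulated data. Alternatives were no filter, a filter of 5 FPKM, a pseudocount of 0.1, median-of-ratios size factors, only the groups compared, leaving out each library, and removal of length and GC trends. The last was chosen after seeing the data. Protein sequences and the promoters of the other 4 subunits were not used here. Some list genes are not reported here, and the counts and sums leave them out.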

Additional observations from a re-analysis of the deposited data

Results flagged for a closer look

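Grin3a stood out because its response to exploration differed between the labelled genotypes by -1.79 on the log2 scale (limma adjusted p = 0.0496), a test of the difference itself. It was lower in KO-labelled and near level in WT-labelled animals, and the 2 KO-labelled home cage libraries, at 5.67 and 9.85 FPKM, were the highest of all. Outlying libraries were not tested for within groups, which hold 2 or 3 libraries each.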

How the results depend on the processing

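No subunit's called change reversed its direction under any alternative run. The Grin3a difference in response lost its call with a pseudocount of 0.1 (0 subunits called; -2.29, limma adjusted p = 0.0591) and with no filter (0 called; adjusted p = 0.146). With no filter the home cage genotype comparison also went to 0 subunits (Grin3a adjusted p = 0.08), and Grik4 in KO-labelled animals (adjusted p = 0.0708) and the averaged Grin2a (0.091) lost their calls. With only the groups compared in the fit, 2 subunits were called in the home cage (Grik4 added, adjusted p = 0.0213) and 2 with exploration in WT-labelled animals (Grik2 added, adjusted p = 0.0158). With length and GC trends removed, 0 were called with exploration in WT-labelled animals and 3 averaged over the genotypes. Over the alternative settings, all-gene counts ranged from 440 to 1690 and from 2918 to 3924 in these 2 comparisons. Adding 1 FPKM gave 0.26 for the kainate and 0.48 for the Grin1 ratio with environment (exact permutation, adjusted p = 0.06 for each). The kainate ratio was not run with the trends removed, because Grik1 and Grik3 had not passed the filter. Removing the trends gave 0.48 for the Grin1 ratio (exact permutation, adjusted p = 0.06). The cause of each was not tested. Size factors changed no call of a subunit, but among the listed genes Dlg2 (adjusted p = 0.0652), Fyn (0.0585) and Pacsin1 (0.0549) lost theirs in KO-labelled animals. With length and GC trends removed 9 of the 16 listed genes kept their call there, and Cask, Apba1, Neto2 and Ppp3cb were among those that did not. With only the groups compared 9 of the 16 kept it.

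Leaving out 1 library at a time gave 0 to 1 subunits called for the difference in response, 0 to 2 in the home cage, 0 to 2 with exploration in WT-labelled and 2 to 6 in KO-labelled animals. The ratios with environment then ranged from 0.26 to 0.51 (kainate) and from 0.45 to 0.69 (Grin1). Too few permutations were left for either ratio to pass. Grin2b in WT-labelled animals lost its call without WT-labelled home cage library 1 (adjusted p = 0.112) or 2 (0.069) or exploration library 1 (0.0654). No filter left 27 genes called between the genotypes in the home cage (425 otherwise), 10 after exploration (71), 47 averaged over environments (253), 440 with exploration in WT-labelled animals (750) and 0 for the difference in response (104). A pseudocount of 0.1 also gave 0 for that difference. A filter of 5 FPKM gave 492 and 68 for the last 2. Only the groups compared gave 36 genes after exploration, 1690 in WT-labelled and 1705 in KO-labelled animals (3400 otherwise). Removing trends gave 544 averaged over environments. Without 1 library the all-gene counts ranged from 84 to 1004 with exploration in WT-labelled and 505 to 3568 in KO-labelled animals, from 13 to 588 between the genotypes in the home cage and 17 to 104 after exploration, and from 0 to 436 for the difference in response. No paired analysis was possible because replicate numbers only name the libraries.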
